A study of Mus musculus with 4 samples.

Results

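Genes of respiratory complexes II, III, IV and V were followed on expression arrays of 3T3-L1 cells given an adipogenic induction mixture with or without berberine. Member probes were those whose symbol in the array's gene table began with Sdha to Sdhd, Uqc, Cox and a digit, or Atp5, or was Cyc1 or Cycs. The rule used no measured value and found 58 of 26423 probes, for 50 of the 17778 genes named in the table. Of these, 55 probes for 48 genes encode subunits or assembly factors of the complexes (7 probes for complex II, 7 for complex III, 27 for complex IV and 14 for complex V). The other 3 probes belong to Emc8 and Dmac2, which carried older symbols (Cox4nb and Atp5sl) and are no parts of these complexes. No probe was listed under Cyc1 or Cycs, so cytochrome c and cytochrome c1 were not analysed here, nor were the subunits encoded in mitochondrial DNA. No named probe was found for Uqcrb, Uqcrh, Cox6b1, Cox7c, Atp5pd, Atp5pf, Atp5mc2, Atp5mg or Atp5mk either. The counts for complexes III, IV and V therefore do not cover every nuclear subunit.

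3T3-L1 is a mouse preadipocyte line that can be turned into fat-storing cells in culture. All 4 samples received isobutylmethylxanthine (0.5 mM), dexamethasone (1 µM) and insulin (1 µg/ml) for 48 hours. The titles name 2 samples as control and 2 as berberine, a plant alkaloid used at 13.47 µM; the treatment text is the same for all 4, so the groups rest on the titles. Each sample was hybridised to 1 array. Since the labels do not tie the samples to separate cultures, the spread behind the p-values may be technical.

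The respiratory chain of the inner mitochondrial membrane passes electrons from succinate (complex II) and other donors through complex III and cytochrome c to oxygen (complex IV), and ATP synthase (complex V) uses the proton gradient that results. Complex II is encoded wholly in nuclear DNA, while the other complexes join nuclear subunits to mitochondrially encoded ones. Several complex IV subunits exist as a general isoform and as one found mainly in heart, skeletal muscle or brown fat, or in testis. Mitochondria multiply as preadipocytes turn into adipocytes, and berberine is known as an inhibitor of complex I.

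The arrays differed in brightness, with median deposited intensities of 423 and 350 in control and 237 and 280 with berberine, and values below are log2 intensities after quantile normalization. Changes are berberine minus control, from a limma fit over 26408 probes with Benjamini-Hochberg adjustment and a threshold of 0.05. Dim signals were judged against a floor at the 25th percentile, log2 6.58. For a gene with several probes, brighter and dimmer refer to the control arrays. Although the labels call the cells preadipocytes, Adipoq and Fabp4 were bright in control (17.47 to 17.63). With berberine 6 of 8 adipocyte marker probes fell and 1 rose, beside 17.7% of all probes lower and 27.1% higher. The rise was at Pparg (adjusted p = 0.0346 in the limma fit), which like Lpl lay under the floor in both groups. The 8 probes' summed intensity was 561005 to 585475 in control and 30320 to 32229 with berberine, while 3 of 8 probes of preadipocyte and fibroblast markers rose and 3 fell (sums of 305821 to 313243 and 279763 to 282273). In a bulk sample fewer differentiated cells and less RNA per cell cannot be told apart, and the part of this shift in the results on respiratory genes was not tested.

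More member probes were lower than higher with berberine. Of 58 probes, 25 fell and 6 rose, which is 43.1% and 10.3%, against 17.7% of all probes lower and 27.1% higher. The 58 include the 3 probes of Emc8 and Dmac2, which are no parts of the complexes and of which 2 fell and 0 rose. Bright probes were called more often. Among all probes above log2 10 on average over the 4 arrays, 23% were lower and 37.7% higher, while 20 of the 36 member probes above that level fell and 1 rose. The median log2 change was -0.42 for the members, 0.17 for all probes and 0.26 for all probes above log2 10. The scaling of the arrays moved these values. The median of all probes was -0.05 in the deposited values, 0.52 after each array was centred on its median and 0.26 after centring on the 75th percentile, and the members' median was -0.31, 0.25 and -0.0046. The members' median therefore lay 0.58 below that of all probes after quantile normalization and 0.26 below it in the other scalings. Those share that value because a constant per array cancels.

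Many calls did not outlast a change of scaling, among the members and over all probes. Calls in the same direction under all 4 scalings numbered 12 falls and 3 rises among the members, against 12.5% of all probes lower and 8.97% higher by the same rule. Most of the 31 calls were lost both without berberine replicate 1 and without berberine replicate 2. Over all probes too, far fewer calls were made without either array, so this loss is not particular to the members. Calls kept under the 4 scalings and with each array left out were 9 falls (Sdhb, Sdhc, Uqcr11, Uqcrq, Cox8b, Cox19, Atp5j2, Atp5o and the dimmer probe of Atp5g1) and 2 rises, both probes of Cox6a2. The share of all probes whose calls were kept in that way was not counted. In the plot by array the control and berberine arrays lay apart at each of the 11, which is no further result, since the probes were picked for stable calls. Of all 58 member probes, 47 had groups that did not overlap. The share over all probes was not counted, so the 47 are not read as a result about the members. Falls of at least 8-fold were seen at 5 member probes (8.62%) and at 2.9% of all probes.

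**Figure D1:**
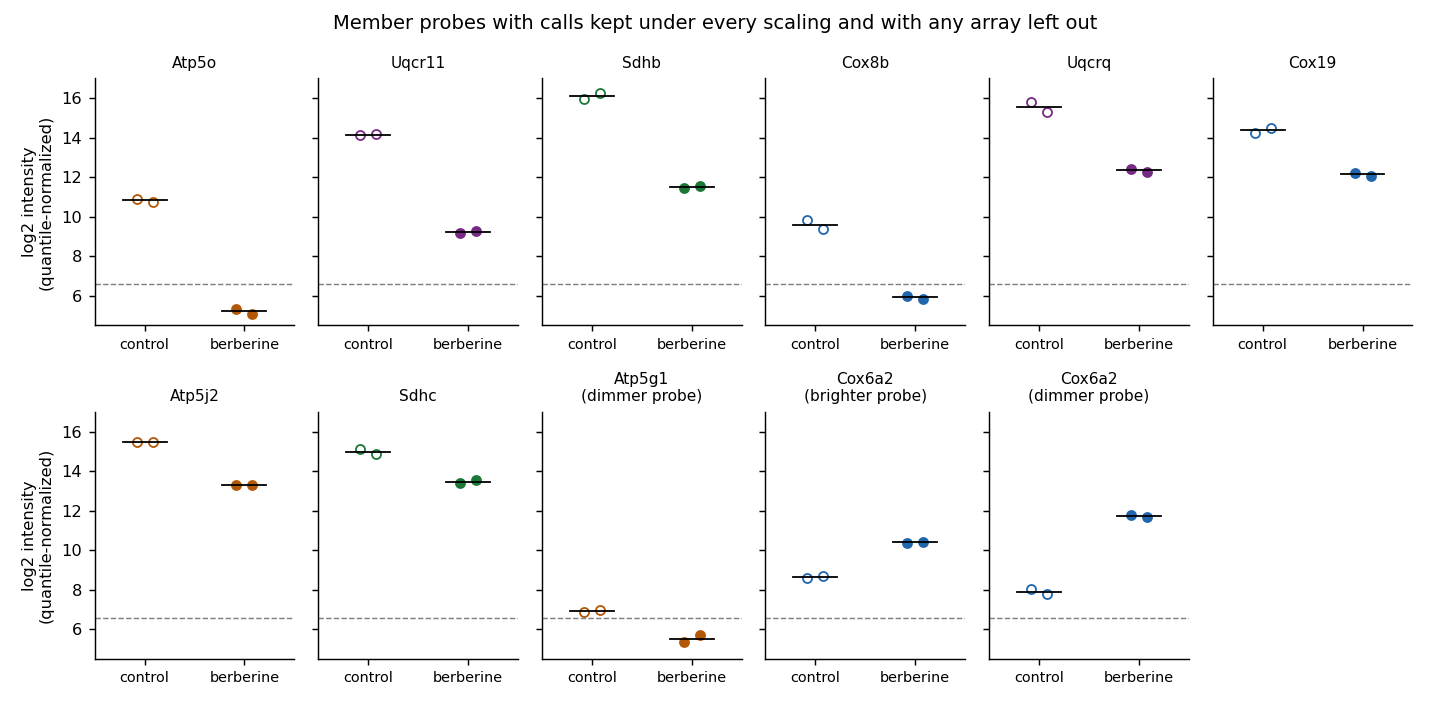
Quantile-normalized log2 intensity of the 11 member probes whose calls were kept under 4 scalings and with each array left out, for the control (open points) and berberine (filled points) arrays, with group means as lines, the floor as a dashed line and colours for the complexes. Sdhb goes from 16.11 to 11.51 and the dimmer Cox6a2 probe from 7.90 to 11.72, and Atp5o, Cox8b and the dimmer Atp5g1 probe end under the floor.

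**Figure D2:**
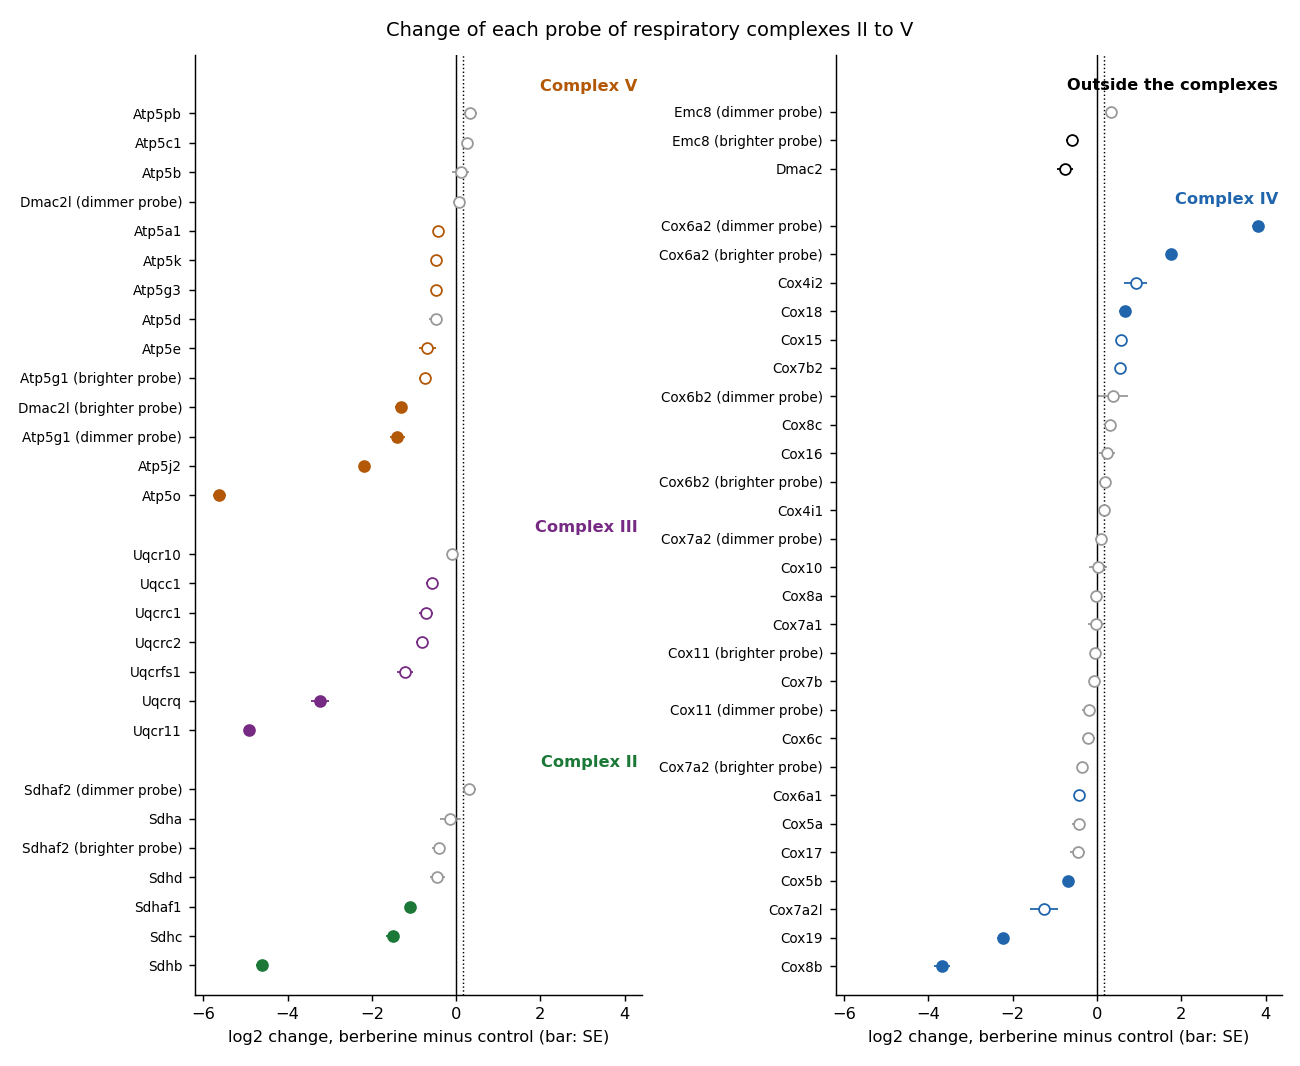
Log2 change of each member probe (berberine minus control, bars are SE), ordered within each complex, with the median of all probes as a dotted line. Filled points were called under all 4 scalings, and open grey points did not pass. Open coloured or black points were called after quantile normalization only or under some of the scalings. The falls of Sdhb (-4.60), Uqcr11 (-4.91), Uqcrq (-3.23), Cox8b (-3.68) and Atp5o (-5.62) stand left of the rest. Those of Cox8b and Atp5o use berberine values under the floor.

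Complex II, succinate dehydrogenase, moved unevenly among its 4 subunits. Sdhb, the iron-sulfur subunit that hands electrons from the flavin to ubiquinone, read 15.96 and 16.25 in control and 11.48 and 11.53 with berberine. Both berberine arrays lay far below both controls, a 24.3-fold fall (a log2 change of -4.60, SE 0.15, adjusted p = 0.000104). Sdhc, a membrane anchor that holds the complex's heme, read 15.12 and 14.85 in control and 13.40 and 13.55 with berberine, a 2.84-fold fall (a log2 change of -1.51, SE 0.15, adjusted p = 0.00185). Sdha, the flavoprotein that oxidises succinate, read 14.55 and 15.18 in control and 14.57 and 14.87 with berberine, so the groups overlapped (a log2 change of -0.14, SE 0.25, adjusted p = 0.674). Sdhd, the other anchor, changed by -0.44 (SE 0.18) and did not pass (adjusted p = 0.110), but it passed without control replicate 2 (adjusted p = 0.0308) and its change was 0.34 after median centring.

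Promoter sequence is shown for the complex II pair that differed most, the catalytic subunits Sdha and Sdhb, as the 250 bases before the RefSeq start on GRCm38.p6, read 5′ to 3′ on the gene's strand. Sdha lies on the minus strand (chr13:74350241-74350490) and Sdhb on the plus strand (chr4:140961021-140961270). Capitals mark matches to the NRF1 motif (GCGCA, any base, then GCGC), the recognition sequence of a factor that drives many respiratory genes; the other motifs searched had no match in either window.
Sdha: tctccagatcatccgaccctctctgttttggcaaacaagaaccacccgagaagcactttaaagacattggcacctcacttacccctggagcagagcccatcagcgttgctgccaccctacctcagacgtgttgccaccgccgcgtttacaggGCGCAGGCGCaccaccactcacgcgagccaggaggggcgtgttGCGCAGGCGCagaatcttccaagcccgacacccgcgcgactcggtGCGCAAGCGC
Sdhb: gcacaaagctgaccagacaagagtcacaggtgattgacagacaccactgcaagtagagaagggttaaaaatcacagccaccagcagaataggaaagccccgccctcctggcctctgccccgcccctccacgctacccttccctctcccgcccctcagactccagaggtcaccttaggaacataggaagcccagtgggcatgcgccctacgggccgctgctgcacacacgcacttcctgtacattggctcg
The Sdha window held 3 NRF1 matches, at bases 98 to 89, 55 to 46 and 10 to 1 before the start, and the Sdhb window held 0. A match is a description of letters and says nothing of binding, and no match says only that these letters are not in this window.

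The assembly factors of complex II changed unevenly too. Sdhaf1, which serves the maturation of Sdhb, fell 2.13-fold (a log2 change of -1.09, SE 0.12, adjusted p = 0.00252), in all 4 scalings, but missed the threshold without berberine replicate 1 (adjusted p = 0.0541) or 2 (adjusted p = 0.0597). Sdhaf2, which serves the attachment of flavin to Sdha, did not pass at its brighter probe (a log2 change of -0.41, SE 0.16, adjusted p = 0.0868; adjusted p = 0.0416 without control replicate 2) or at its dimmer probe (0.32, SE 0.15, adjusted p = 0.140). Sdhaf4, an Sdha chaperone listed under an older name and so no member, fell 2.88-fold (a log2 change of -1.52, SE 0.14, adjusted p = 0.00122), and Sdhaf3 changed by 0.41 (SE 0.23, adjusted p = 0.211; it passed without control replicate 1).

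Complex III, cytochrome bc1, had the largest share of calls, with 6 of 7 probes lower (85.7%) and 0 higher. Of all probes, 17.7% were lower and 27.1% higher. Only 2 of the 6 falls were called in all 4 scalings, as were falls at 12.5% of all probes. The small subunit Uqcr11 read 14.13 and 14.17 in control and 9.18 and 9.29 with berberine, a 30.2-fold fall (a log2 change of -4.91, SE 0.12, adjusted p = 7.13e-05). Uqcrq, a small subunit beside cytochrome b, read 15.83 and 15.32 in control and 12.42 and 12.28 with berberine, a 9.36-fold fall (a log2 change of -3.23, SE 0.20, adjusted p = 0.000488). Both calls held in all 4 scalings and without each array. Uqcr10, another small subunit, read 16.60 and 16.47 in control and 16.45 and 16.42 with berberine and did not pass (a log2 change of -0.10, SE 0.13, adjusted p = 0.568); it was called higher after median centring (0.62, adjusted p = 0.0258).

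The larger complex III subunits changed less and depended on the scaling. Uqcrfs1, the Rieske iron-sulfur protein that carries electrons to cytochrome c1, read 15.98 and 15.50 in control and 14.48 and 14.57 with berberine (a log2 change of -1.22, SE 0.20, adjusted p = 0.00729). The core proteins Uqcrc1 and Uqcrc2 had log2 changes of -0.72 (SE 0.17, adjusted p = 0.0217) and -0.82 (SE 0.13, adjusted p = 0.00711), and the assembly factor Uqcc1 of -0.58 (SE 0.13, adjusted p = 0.0210). After median centring the changes of Uqcrfs1, Uqcrc1, Uqcrc2 and Uqcc1 were -0.43, 0.0031, -0.05 and -0.41, and none of them passed. The same 4 calls were lost without berberine replicate 1 (adjusted p of 0.0677 to 0.148) and without berberine replicate 2 (0.0863 to 0.148).

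In complex IV, cytochrome c oxidase, 5 of 27 probes fell and 6 rose, shares of 18.5% and 22.2% near those of all probes (17.7% and 27.1%). Of 9 probes of its general subunits, 2 fell and 0 rose, and of 9 probes of tissue-specific isoforms, 4 rose and 1 fell. The rises were at both probes of Cox6a2 and at Cox4i2 and Cox7b2, and of these only the Cox6a2 calls held in all 4 scalings and without each array. The general subunits Cox4i1, Cox5a and Cox8a read 16.51 and 16.44, 16.42 and 16.65, and 17.23 and 17.23 in control. With berberine they read 16.65 and 16.65, 16.19 and 16.01, and 17.26 and 17.17. None of these 3 passed after quantile normalization (log2 changes of 0.17, -0.44 and -0.02; adjusted p = 0.295, 0.0705 and 0.928), though Cox4i1 was called higher after median centring (0.85, adjusted p = 0.00992) and Cox5a lower with an intensity trend (adjusted p = 0.0479) and after dim probes were left out (adjusted p = 0.0487). Cox5b, a zinc-binding subunit, fell 1.62-fold (a log2 change of -0.70, SE 0.12, adjusted p = 0.00903), in all 4 scalings but not without berberine replicate 1 (adjusted p = 0.0918) or 2 (0.0901). Cox6c (-0.21) and Cox7b (-0.08) did not pass (adjusted p = 0.318 and 0.627).

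Cox6a2, the isoform of subunit VIa found in heart and skeletal muscle, rose at both of its probes, while Cox6a1, the general isoform, did not rise. The brighter Cox6a2 probe read 8.61 and 8.69 in control and 10.39 and 10.41 with berberine, and the dimmer one 8.04 and 7.77 in control and 11.78 and 11.66 with berberine. The rises were 3.37-fold (a log2 change of 1.75, SE 0.12, adjusted p = 0.000609) and 14.1-fold (3.82, SE 0.15, adjusted p = 0.000145), with the berberine arrays above the controls at both probes, the probe dimmer in control being the brighter one with berberine, and a gap of 2.07 between the probes' changes. Cox6a1 read 16.78 and 16.72 in control and 16.33 and 16.33 with berberine, a log2 change of -0.42 (SE 0.12, adjusted p = 0.0421). That call was lost without each of the arrays (adjusted p = 0.0643, 0.0541, 0.172 and 0.166 without control 1, control 2, berberine 1 and berberine 2), and the change was 0.25 after median centring. The changes of Cox6a2 and Cox6a1 differed by 2.17 and 4.24 at the Cox6a2 probes (1.49 and 3.80 in the deposited values).

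Cox8b, the heart, muscle and brown fat isoform of subunit VIII, went the other way. It read 9.83 and 9.36 in control and 6.01 and 5.82 with berberine, under the floor on both berberine arrays, a fall of at least 8.06-fold (adjusted p = 0.000319). Its general counterpart Cox8a had a log2 change of -0.02 (SE 0.12), so the changes of the isoforms differed by -3.66 (-3.84 in the deposited values). That difference takes the Cox8b readings under the floor as they stand, so its exact size is uncertain. Cox7a1, the corresponding muscle and brown fat isoform of subunit VIIa, read 7.49 and 7.02 in control and 7.24 and 7.21 with berberine and did not pass (a log2 change of -0.03, SE 0.19, adjusted p = 0.922), nor did the general Cox7a2 at its brighter probe (-0.35, adjusted p = 0.0647) or its dimmer one (0.10, adjusted p = 0.608) after quantile normalization. The brighter Cox7a2 probe passed with an intensity trend (adjusted p = 0.0477) and after dim probes were left out (adjusted p = 0.0441), and the dimmer one was called higher after median centring (0.63, adjusted p = 0.0222). The difference of the changes of Cox7a1 and Cox7a2 was 0.33 against the brighter Cox7a2 probe and -0.13 against the dimmer one.

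**Figure D3:**
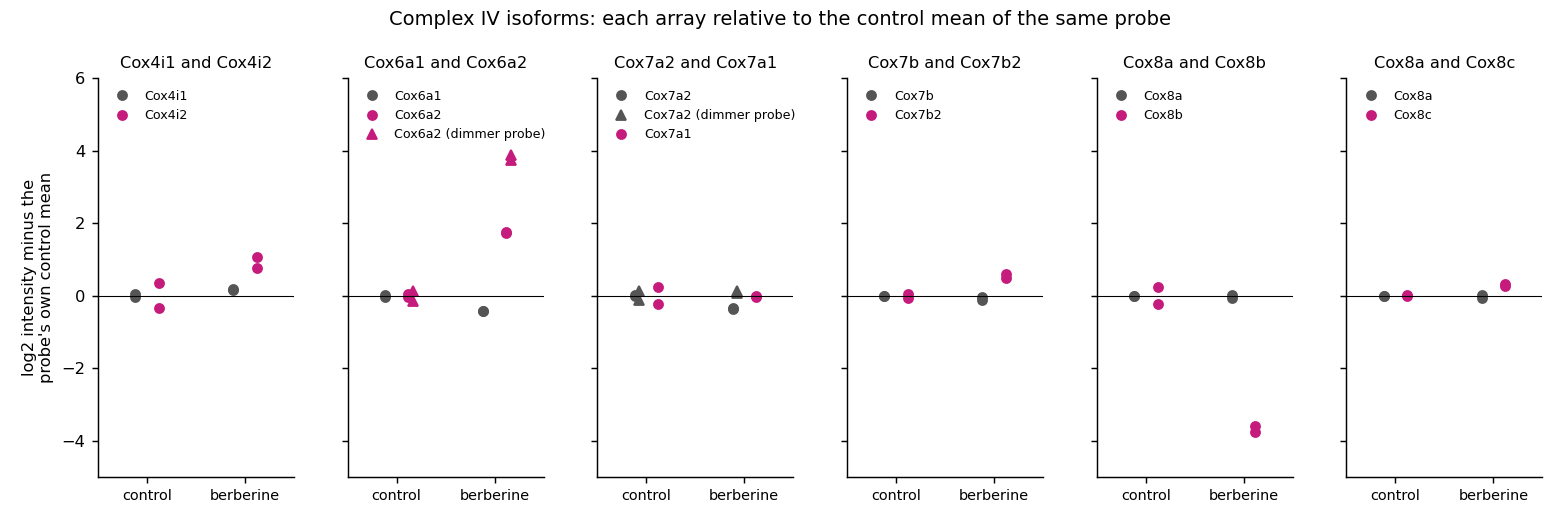
Log2 intensity of each array minus the control mean of the same probe, for 6 pairs of a general (grey) and a tissue-specific (magenta) isoform of complex IV; each point is 1 array, and triangles are the dimmer probe of a gene. Cox6a2 lies 1.75 and 3.82 above its control mean on average and Cox8b 3.68 below it, while Cox6a1, Cox7a1, Cox7a2 and Cox8a stay within 0.5. The Cox8b value uses berberine arrays under the floor.

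The remaining isoforms were dim, and the calls among them rested on single arrays or on the scaling. Cox4i2, the isoform of lung that is induced by low oxygen, read 6.58 and 7.29 in control and 8.002 and 7.70 with berberine (a log2 change of 0.91, SE 0.27, adjusted p = 0.0472). Its call was lost under the other 3 scalings (adjusted p = 0.0514 to 0.237), without control replicate 1 (0.126) and without berberine replicate 1 (0.256) or 2 (0.171). Cox7b2, of testis, changed by 0.55 (SE 0.13, adjusted p = 0.0231; 0.16 in the deposited values), a call lost without control replicate 1 (0.0632) and berberine replicate 1 (0.106) or 2 (0.140). The testis isoforms Cox8c (0.31, adjusted p = 0.0940) and Cox6b2 (0.18 and 0.38 at its probes, adjusted p = 0.291 and 0.448) did not pass, except Cox8c after median centring (0.61, adjusted p = 0.0388), and Cox8c and the dimmer Cox6b2 probe lay under the floor in control. With 8 differences of isoform changes computed over 2 against 2 arrays, the exact two-sided permutation p could not go below 0.333, which 7 of them reached (0.381 after Benjamini-Hochberg adjustment), so this test could not pass for any pair.

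Muscle genes were measured beside the isoforms. Of 13 probes for 12 striated muscle markers, 5 rose (Actn3, Tnni2, Tnnt3, Tnni3 and Des) and 0 fell, beside 27.1% of all probes higher and 17.7% lower, and their summed intensity was 3556 to 3897 in control and 6147 to 6236 with berberine. The call of Tnni2, a fast-muscle troponin, was kept without each array, while those of Actn3, Tnnt3, Tnni3 and Des were lost without either berberine array, and that of Tnni3 also without either control array. Ckm and Ckmt2, the muscle and mitochondrial creatine kinases, lay under the floor in both groups, and Acta1, skeletal actin, had a log2 change of 0.07 (adjusted p = 0.707). Of the brown fat markers, Ucp1, Dio2 and Elovl3 lay under the floor in both groups, and Cidea had a log2 change of 0.22 (adjusted p = 0.211). Zic1, a factor of the brown fat lineage that was under the floor in control, rose at least 1.29-fold (adjusted p = 0.0111), but its call needed both berberine arrays. Ppara fell at 1 of its 2 probes, which lay under the floor in both groups. Of 9 probes of male germ cell markers 3 rose and 1 fell (sums of 2610 to 2819 and 2665 to 2709). Of 7 macrophage probes 2 rose and 1 fell (1592 to 1886 and 2271 to 2441), and of 7 endothelial probes 2 rose (1057 to 1100 and 1405 to 1485), against the same background. The part of these genes in the isoform results was not tested.

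The 250 bases before the start of Cox6a1 (minus strand, chr5:115348959-115349208) and Cox8b (minus strand, chr7:140900447-140900696) are shown as a general and a tissue-specific isoform gene whose probes were called, the latter with the largest fall in complex IV. Capitals mark the NRF1 motif and, near the start of Cox6a1, the ETS motif CCGGAAG on the opposite strand. The promoter reference held no entry for Cox6a2, so its promoter was not searched.
Cox6a1: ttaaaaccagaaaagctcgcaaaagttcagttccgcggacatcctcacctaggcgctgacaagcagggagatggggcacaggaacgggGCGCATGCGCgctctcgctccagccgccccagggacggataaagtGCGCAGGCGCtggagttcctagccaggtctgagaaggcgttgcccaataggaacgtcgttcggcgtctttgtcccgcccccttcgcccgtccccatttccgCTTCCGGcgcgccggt
Cox8b: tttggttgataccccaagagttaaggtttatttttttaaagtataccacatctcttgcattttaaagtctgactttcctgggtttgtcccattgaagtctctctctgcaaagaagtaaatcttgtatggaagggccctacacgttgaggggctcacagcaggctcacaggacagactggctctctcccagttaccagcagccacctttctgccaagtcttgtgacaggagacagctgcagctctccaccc
Cox6a1 held 2 NRF1 matches (bases 162 to 153 and 117 to 108 before the start) and 1 ETS match (bases 16 to 10), and Cox8b held none of the 7 motifs searched. Over 40 promoters of 37 member genes, 12.5% held the NRF1 motif and 20% the ETS motif on either strand, against 3.74% and 6.91% of 32851 promoters of the table. By call, the NRF1 motif was in 2 of 18 promoters of genes with a probe called lower and in 3 of 20 of genes with no call, and the ETS motif in 3 of 18 and 5 of 20. The other motifs were TCAAGGTCA (ERR, 2.5% of member promoters and 0.387% of all), AGGTCA, any base and AGGTCA again (PPAR, 0% and 0.0335%), CTA, 4 bases and TAG (MEF2, 2.5% and 3.2%), AANATGGC (YY1, 2.5% and 3.91%) and TATAAA (5% and 12.4%). Matches were counted on both strands, and in the printed windows no matches overlap.

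The assembly factors of complex IV also diverged. Cox19, a factor for copper delivery, read 14.26 and 14.50 in control and 12.21 and 12.08 with berberine, a 4.70-fold fall (a log2 change of -2.23, SE 0.15, adjusted p = 0.000542) kept in all 4 scalings and without each array. Cox18, which inserts the Cox2 protein into the membrane, read 13.83 and 14.03 in control and 14.63 and 14.53 with berberine, a 1.57-fold rise (a log2 change of 0.65, SE 0.14, adjusted p = 0.0171), kept in the 4 scalings but not without berberine replicate 1 (adjusted p = 0.136) or 2 (0.109). Cox10 and Cox11, factors of heme A synthesis and copper insertion, did not pass (log2 changes of 0.02 for Cox10 and of -0.04 and -0.20 for the probes of Cox11), though Cox11 was called higher at its brighter probe after median centring (0.56, adjusted p = 0.0272). The copper chaperone Cox17 (-0.46, adjusted p = 0.0921) and Cox16 (0.24, adjusted p = 0.360) did not pass. Cox15, a heme A synthesis factor under the floor in control, rose at least 1.42-fold (adjusted p = 0.0185; 0.128 without berberine replicate 1 and 0.116 without berberine replicate 2), a call also lost in the deposited values (0.29, adjusted p = 0.459) and after centring on the 75th percentile (adjusted p = 0.114). Cox7a2l, which links complexes III and IV into supercomplexes, was at least 1.19-fold lower, with both berberine arrays under the floor (adjusted p = 0.0332), a call lost in the other scalings and without control replicate 1 (0.192), control replicate 2 (0.149) or berberine replicate 1 (0.122).

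In complex V, ATP synthase, 9 of 14 probes fell (64.3%) and 0 rose, beside 17.7% of all probes lower and 27.1% higher. Only 4 of these falls were called in all 4 scalings, as were falls at 12.5% of all probes. Atp5o, the stalk subunit that confers oligomycin sensitivity (now Atp5po), read 10.88 and 10.77 in control and 5.33 and 5.09 with berberine, under the floor, a fall of at least 18.9-fold (adjusted p = 7.13e-05). The other stalk subunit measured, Atp5pb, read 8.01 and 8.31 in control and 8.56 and 8.43 with berberine and did not pass (a log2 change of 0.33, SE 0.16, adjusted p = 0.144). Atp5j2, an accessory subunit of the membrane part (now Atp5mf), read 15.47 and 15.47 in control and 13.28 and 13.30 with berberine, a 4.52-fold fall (a log2 change of -2.18, SE 0.12, adjusted p = 0.000319). For Atp5o and Atp5j2 both berberine arrays lay below both controls in all 4 scalings, and their calls were kept without each array.

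The catalytic head of ATP synthase changed less. Atp5a1, the alpha subunit (now Atp5f1a), read 16.16 and 16.06 in control and 15.68 and 15.69 with berberine (a log2 change of -0.42, SE 0.12, adjusted p = 0.0428), and its change was 0.34 after median centring and 0.09 after centring on the 75th percentile. Atp5b, the catalytic beta subunit (now Atp5f1b), read 13.43 and 13.93 in control and 13.80 and 13.78 with berberine and did not pass (0.11, SE 0.20, adjusted p = 0.683), except after median centring, where it was called higher (0.84, adjusted p = 0.0196). The gamma subunit Atp5c1 (0.26, adjusted p = 0.153) and the delta subunit Atp5d (-0.49, adjusted p = 0.0631) did not pass, though Atp5d did with the replicate block (adjusted p = 0.0468) and after dim probes were left out (adjusted p = 0.0430), and the epsilon subunit Atp5e had a log2 change of -0.68 (SE 0.19, adjusted p = 0.0420; 0.10 after median centring).

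The c ring, which turns with proton flow, was lower at all 3 of its probes after quantile normalization. These belong to Atp5g1 and Atp5g3, and no named probe was found for the further c ring gene Atp5mc2. Atp5g1 fell 1.67-fold at its brighter probe (a log2 change of -0.74, SE 0.15, adjusted p = 0.0161; 0.0056 after median centring) and at least 1.27-fold at its dimmer one (adjusted p = 0.00331). Atp5g3 changed by -0.47 (SE 0.12, adjusted p = 0.0322; 0.11 after median centring), and Atp5k, a subunit at the dimer interface, by -0.47 (SE 0.12, adjusted p = 0.0345; 0.31 after median centring). The calls of Atp5a1, Atp5e, Atp5g3 and Atp5k were lost without control replicate 1 (adjusted p of 0.0508 to 0.0713) and, Atp5e apart, without control replicate 2 (0.0516 to 0.0692). These 4 calls and that of the brighter Atp5g1 probe were lost without berberine replicate 1 (0.115 to 0.222) and without berberine replicate 2 (0.122 to 0.193). Dmac2l, once called factor B of ATP synthase, fell 2.47-fold at one probe (a log2 change of -1.30, SE 0.14, adjusted p = 0.00228; 0.0510 and 0.0604 without berberine replicate 1 and 2) and did not pass at the other (0.07, SE 0.14, adjusted p = 0.701).

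Set side by side, the complexes had median log2 changes of -0.44 (II), -0.82 (III), -0.02 (IV) and -0.48 (V). Relative to the median of all probes these were -0.61, -0.99, -0.18 and -0.65 after quantile normalization and -0.21, -0.92, -0.09 and -0.42 in each of the other 3 scalings. Complex III was lowest and complex IV highest both after quantile normalization and in the other scalings. Those other scalings give equal values because a constant per array cancels, so they are not separate checks. Within complex IV the general subunits stood at -0.38 and the tissue-specific isoforms at 0.21 relative to all probes (-0.25 and 0.10 in the other scalings). The isoform probes were dimmer, with control means of 6.30 to 9.59, against 7.98 to 17.23 for the general subunits. The isoforms were 9 probes for 7 genes, with Cox6a2 and Cox6b2 counted at both probes. At 3 of the 9 a group mean lay under the floor. All these medians are descriptions over 7 to 27 probes, and no difference between complexes was tested.

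**Figure D4:**
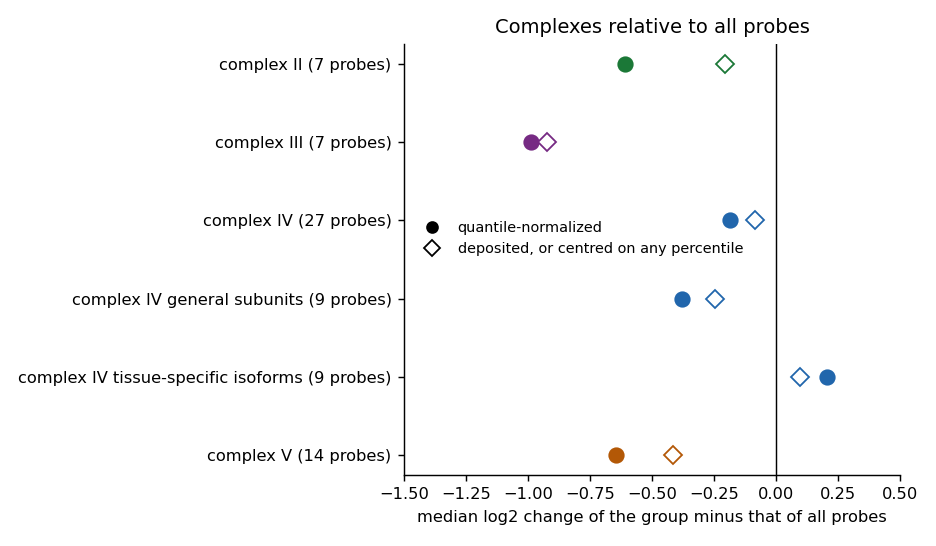
Median log2 change of each complex, and of general and tissue-specific subunits of complex IV, minus the median of all probes, after quantile normalization (filled circles) and in the other scalings (open diamonds, which share 1 value because a constant per array cancels). Complex III is lowest at -0.99 and -0.92, and the tissue-specific isoforms lie above 0 at 0.21 and 0.10. The isoforms are 9 probes for 7 genes, and 3 of these probes have a group mean under the floor.

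**Figure D5:**
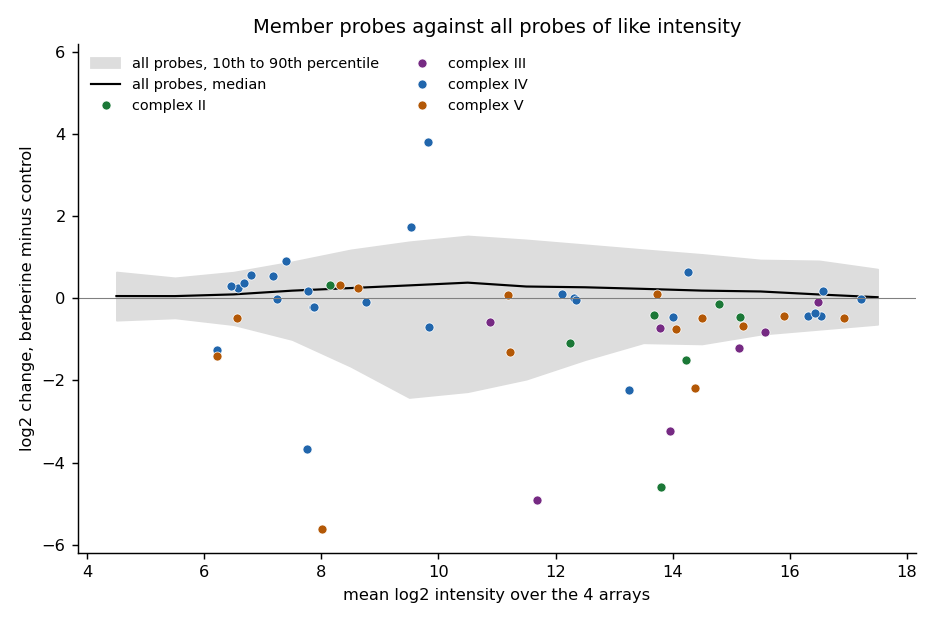
Log2 change (berberine minus control) against the mean log2 intensity over the 4 arrays for the probes of complexes II to V, over the median (line) and the range from the 10th to the 90th percentile (grey) of all probes in bins of 1 log2 unit with at least 20 probes. Sdhb, Sdhc, Uqcr11, Uqcrq, Uqcrfs1, Cox8b, Cox19, Cox7a2l, Atp5o, Atp5j2 and the dimmer Atp5g1 probe lie below the grey range and the Cox6a2 probes and, narrowly, Cox4i2 above it, while many bright members sit inside it, below the line.

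Agreement between probes of a gene could be read for 8 of the 50 genes. Both probes were called the same way for Cox6a2 and Atp5g1, 1 of the 2 was called for Dmac2l and Emc8, and neither for Sdhaf2, Cox11, Cox7a2 and Cox6b2. For Dmac2l, Emc8, Sdhaf2 and Cox7a2 the probes' changes had opposite signs. The 5 falls of at least 8-fold (Sdhb, Uqcr11, Uqcrq, Cox8b and Atp5o) each rest on 1 probe. Probe sequences were not analysed here, so reading of processed pseudogenes or related isoforms by these probes was not tested. Among the members matched through an older symbol, Dmac2, a complex I assembly factor, had a log2 change of -0.75 (adjusted p = 0.0301) and Emc8, of the endoplasmic reticulum membrane complex, of -0.59 (adjusted p = 0.0273) and 0.34 (adjusted p = 0.0999; 0.51 and adjusted p = 0.0426 after median centring) at its probes. The Dmac2 call and that of the brighter Emc8 probe were lost without berberine replicate 1 (0.172 and 0.171) and 2 (0.182 and 0.104), and the latter also without control replicate 1 (0.0937) or 2 (0.0649).

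Other genes of the pathway lay outside the rule. Atpif1 (now Atp5if1), the inhibitor of ATP synthase's reverse reaction, read 15.32 and 15.20 in control and 16.25 and 16.10 with berberine, a 1.88-fold rise (a log2 change of 0.91, SE 0.13, adjusted p = 0.00542) in all 4 scalings that was lost without either berberine array. Of 33 probes of assembly factors for the 4 complexes, 15 fell and 3 rose, beside 17.7% of all probes lower and 27.1% higher. Of these calls, 10 of the falls and the 3 rises were lost without either berberine array, and the falls of Sdhaf4, Surf1, Tmem242 and Timm21 (at a pair of probes) were kept. Surf1, a complex IV assembly factor, fell 37.2-fold, from 14.41 and 14.77 to 9.35 and 9.40 (adjusted p = 0.000101), and Tmem242, a factor of ATP synthase assembly, fell 37.8-fold, from 14.82 and 15.37 to 9.81 and 9.90 (adjusted p = 0.000155). Timm21, which links protein import to complex IV assembly, fell 17.8-fold and 4.63-fold at its brighter probes and lay under the floor at the remaining one. The rises were at Coa7 (3.02-fold, adjusted p = 0.00519), Coa8 (1.84-fold, adjusted p = 0.00433) and Sco1 (1.73-fold, adjusted p = 0.0262), and the call of Sco1 was also lost without control replicate 2. Ubiquinone, the carrier that feeds complex III, had 14 probes for 13 genes of its synthesis and handling. Of these, 3 fell (Coq7, Coq8b and Pdss2 at its brighter probe) and 4 rose (Pdss1, Coq10a, Coq10b and the dimmer Pdss2 probe). These counts lie near the shares of all probes (17.7% lower and 27.1% higher), and the median log2 change was 0.08. The calls at Pdss1, Coq7, Coq8b, Coq10a, Coq10b and the dimmer Pdss2 probe were lost without at least 1 of the arrays.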

How the data were processed

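Per the labels' protocols, each sample's RNA was labelled with Cy5. The authors deposited linear probe intensities as whole numbers, a few of them below 0; how they corrected background or scaled arrays is not stated, which leaves zero point and scale unknown. Array medians differed by 0.81 on the log2 scale. Leaving out 15 probes with a value at or under 0 (none a member), the other 26408 were quantile-normalized on log2 without a pseudocount and fitted with limma 3.58.1 (lmFit, eBayes, R 4.3.3), 2 residual and 2.89 prior degrees of freedom, with Benjamini-Hochberg adjustment over all probes. The fit was also run on simulated data with a common spread for all probes and few changed probes. Such data are unlike these, so that run does not vouch for the calls given here. Probes were named from the platform's gene table (20377 of 26423 had 1 symbol) and updated to RefSeq symbols of GRCm38.p6; promoters came from RefSeq. Where a group's mean lay under the floor, the fold is the brighter mean over the dimmer arrays raised to the floor ("at least"); where both did, no fold is given.

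Members and lists were chosen with earlier results of these data known. Named were all isoforms with a general or tissue-specific counterpart, complex II subunits, the alpha and beta subunits and the inhibitor of ATP synthase, up to 4 of the largest rises and falls called in each complex, and genes with several probes. Other members and pathway genes were added after their values were seen. With 2 arrays a group an exact two-sided permutation p stops at 0.333, and the calls rest on limma's pooled spread. Alternatives were the deposited values, centring on the median or the 75th percentile, the replicate block, a trend with robust prior, leaving out dim probes, log2(value + 16), averaged probes and each array left out.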

Additional observations from a re-analysis of the deposited data

How the results depend on the processing

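Depth is not defined for arrays; their number, 2 a group, and the floor limit the precision. Over all probes 11838 calls became 6687 in the deposited values and 3346 to 10787 with an array left out. The 6 higher member calls became 3 in the deposited values, 12 after median centring, 3 after 75th percentile centring and 2 to 6 with an array left out, and the 25 lower calls became 13, 12, 13 and 9 to 21. All 16 member calls in the deposited values and all 16 after 75th percentile centring were among the 31, as were 17 of the 24 after median centring.

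The replicate numbers did not pair the samples (correlation of deviations 0.0035 for equal numbers); with the replicate block 12760 probes, and 22 lower and 6 higher member probes, were called. The trend with robust prior kept all 31 calls of 33, and log2(value + 16) all of 31.

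Relative to all probes (run on the medians after seeing the data), complex II moved from -0.61 to -0.21, complex IV from -0.18 to -0.0859 and complex V from -0.65 to -0.42 in the deposited values and after median or 75th percentile centring. Complex IV was at -0.27 without dim probes and -0.16 with log2(value + 16). With an array left out complex II ranged from -0.84 to -0.59 and complex IV from -0.21 to -0.15. In the deposited values the isoform differences were 0.24 (Cox4i2 minus Cox4i1), 1.49 and 3.80 (Cox6a2 minus Cox6a1), -0.51 and -0.22 (Cox7a1 minus Cox7a2), 0.86 (Cox7b2 minus Cox7b) and 0.18 (Cox8c minus Cox8a).

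Signs turned at 18 member probes after median centring, 13 after 75th percentile centring and 8 in the deposited values. Among probes called in at least 1 of the 2 fits compared, this was so after median centring at Uqcrc1 (0.0031), Uqcr10 (0.62), Cox11 (brighter probe, 0.56), Cox6a1 (0.25), Atp5a1 (0.34), Atp5e (0.10), Atp5g1 (brighter probe, 0.0056), Atp5g3 (0.11), Atp5k (0.31) and Emc8 (brighter probe, 0.0769), and after 75th percentile centring at Atp5a1 (0.0855) and Atp5k (0.0477). These shifts follow from the scaling, which moves the median of all probes from 0.17 to 0.52 and 0.26; other causes were not tested.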
